A study of Mus musculus with 135 samples.

Results

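Among 62 haematopoietic stem cells (HSCs) of 1 old mouse, 26 expressed *Egr3* above a limit given below and 36 did not. The expression of all other genes was set side by side in these cells. The groups are called cells with and without *Egr3*, although 9 of the 36 had some *Egr3* reads. *Egr3* (chromosome 14, positions 70077317 to 70082613 on GRCm38) encodes a zinc finger transcription factor of the early growth response (EGR) family. The whole series holds 135 single cells, 61 from a young and 74 from an old mouse. The old cells came from the bone marrow of a C57BL/6 mouse aged 20 to 25 months that carried the Vwf-eGFP reporter, a transgene that marks cells with activity of the von Willebrand factor gene, and they had been sorted as 7AAD-Lin-Sca-1+c-Kit+CD150+CD48-. The young cells came from a reporter mouse of the same strain aged 2 to 3 months and are used here only as a point of reference. The rule leaves out 12 of the 74 old cells by name, 2 of which expressed *Egr3* above the limit.

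The 2 groups of old cells were chosen by the measured level of *Egr3* itself. In each cell, reads counted on genes were scaled to CPM (counts per 1000000 counted reads), and a gene was scored as expressed in a cell whose log2(CPM + 1) exceeded 2, which is a CPM above 3. All 62 cells belong to 1 mouse and 1 capture, so cells are not replicates, and no test, p-value or standard error is given for any difference below. The SD, the lowest, median and highest cell and the counts of cells describe the spread between cells of this mouse. Intervals for shares of cells (95%, exact Clopper-Pearson) treat the cells as independent draws and cover no other source of variation. The reads carried no molecular identifiers, so the Poisson interval for summed reads below covers the counting of reads only.

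Immediate-early genes are switched on within minutes of a stimulus such as a growth factor, from factors already present in the cell. Signals through the ERK kinases act on serum response factor (SRF) and its partners, while cyclic AMP and calcium act on the factor CREB, and the induced *Fos*, *Jun*, *Egr* and *Nr4a* products then regulate later genes. EGR factors also induce their own restraint through the NAB corepressors, and *Egr1* is known for keeping HSCs quiescent and in their niche. *Egr3* is best known from T cells and neurons.

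*Egr3* was close to an on and off trait in these cells. In the 26 cells with *Egr3* its lowest level was 2.18, the median 7.19 and the highest 10.91 as log2(CPM + 1), from 12221 summed reads. Of the 36 cells without it, 27 had no read, and the other 9 lay between 0 and the limit, with a highest level of 1.83 and 22 summed reads (95% exact Poisson interval 13.8 to 33.3). Just outside the limit were the cells of wells H11, H12 and H8 at 1.39, 1.62 and 1.83, from 3, 5 and 5 reads. Just inside it were A7, A4 and G10 at 2.18, 3.04 and 3.44. A7 and A4 rest on 2 reads each in cells with 567700 and 276316 counted reads, fewer *Egr3* reads than in H8. Few cells therefore lie near the limit, but those that do are placed by depth as much as by reads. In the young mouse 2 of 61 cells (3.28%) expressed *Egr3*, at 5.93 and 8.68. Age, mouse and capture cannot be told apart in that contrast.

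**Figure D1:**
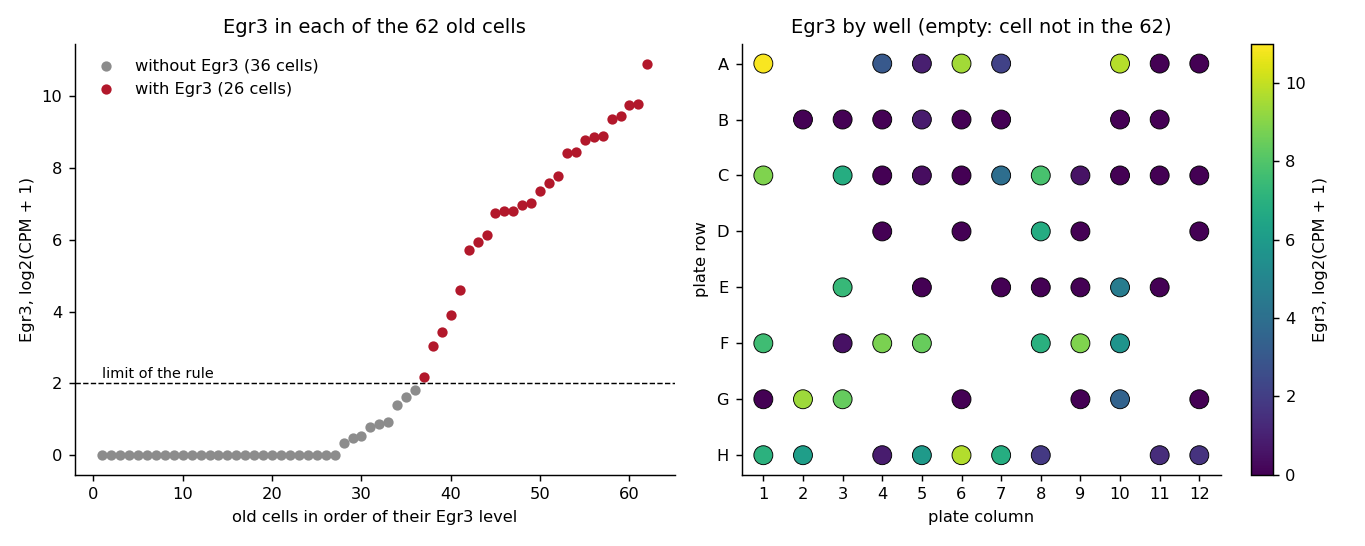
Level of *Egr3* as log2(CPM + 1) in each of the 62 old cells, in order of the level (left; points are cells, the dashed line is the limit of 2), and by the row and column of the well name (right; each circle is the well of 1 cell, coloured by its level). Levels run up to 1.83 in the 36 cells without and from 2.18 to 10.91 in the 26 cells with *Egr3*, and no circle in row B or in columns 11 and 12 lies above the limit.

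Median depth was similar in the 2 groups, but more of the cells with *Egr3* were shallow. Cells with *Egr3* had between 276316 and 3344443 counted reads with a median of 2217091, and cells without it between 465090 and 4086659 with a median of 2093231. Under 1000000 reads were 8 of 26 and 3 of 36 cells. The median number of expressed genes was 3979 and 3893. The part of depth in the differences below was not tested. The cells are named by wells, read here as rows and columns of a plate, and it is not stated whether these follow the positions on the capture chip. Row B and columns 11 and 12 held no cell with *Egr3* among their 17 cells, while 26 of the 45 others held it. These wells were picked after the counts were seen because they held none, so the contrast is a description. Median depth was 1533818 reads in those 17 cells and 2231711 in the others, and row F held *Egr3* in 6 of 7 cells. Row A had the lowest median depth of the rows, 590156.5 reads, and held *Egr3* in 5 of 8 cells. The part of well position in the differences below was not tested, but values without these wells are given beside some of them. Of the markers of the sort, *Kit* was found in 25 of 26 and 36 of 36 cells, *Ly6a* (Sca-1) in 18 and 25, *Slamf1* (CD150) in 5 and 10, and *Cd48* was at 0 in all. Some transcripts of other cell types were found. Of the T cell list, *Cd4* was at 0, *Cd3d* was found in 5 and 11 cells and *Lck* in 4 and 2, with a summed level of up to 271 and 1359 CPM. Of the dendritic list, *Clec9a* was found in 4 and 7 cells and the summed level ran from 9.44 to 943 and from 9.80 to 1221 CPM. Of the endothelial list, *Emcn* was found in 2 and 5 cells, *Kdr* in 1 and 1 and *Plvap* in 0 and 1. Of the neutrophil list, *Mpo* was found in 1 cell with *Egr3* at 9.42 and *Elane* in 1 cell without it at 5.32. *S100a8* was found in 1 and 2 cells and *S100a9* in 1 and 1. *Epor* (red cell) and *Col1a2* (stroma) were found in 1 cell each without *Egr3*. *Hba-a1*, *Klf1*, *Cxcl12* and *Col1a1* were at 0. Of 8 macrophage and monocyte markers, 5 were in the table, with a summed level of 0.320 to 771 CPM in cells with and 0 to 1564 CPM in cells without *Egr3*. Most of this was *Lyz2*, a myeloid transcript found in 18 and 25 cells with means of 5.11 and 5.38. *Cd68* was found in 2 and 3 cells, *C1qb* in 1 cell with *Egr3* at 7.35, and *C1qa* was at 0. Of 6 B cell markers only *Cd79b* was in the table. It was found in 10 of 26 and 6 of 36 cells, at up to 797 and 490 CPM, and was 1.17 higher in cells with *Egr3*. Its part in the other differences was not tested.

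Immediate-early genes as a group were somewhat higher in cells with *Egr3*, but most were also expressed without it. Of 54 listed immediate-early genes other than *Egr3*, 52 had a read in these cells. The difference of mean log2(CPM + 1), with minus without *Egr3*, was positive for 34 (65.4%) and negative for 18, with a median of 0.24. Over all 14139 genes with a read, 47.05% were positive and the median was -0.02. A difference of at least 1 was found for 10 members towards cells with *Egr3* (19.2% of the 52) and for 1 member towards cells without. Over all genes these shares were 4.79% higher and 4.17% lower. With the genes limited to those found in 20% or more of cells, the shares over all genes were 8.2% higher and 7.61% lower, and the list gave 10 and 1 of 36. The mean level over all list members in a cell ran from 2.77 to 5.01 with a median of 3.78 in cells with *Egr3*, and from 1.77 to 4.38 with a median of 3.51 in cells without, so the groups overlapped widely. Medians of 25 and 24 members were expressed per cell. Without row B and columns 11 and 12, 7 members were at least 1 higher, as were 7.18% of all genes, and the median was 0.19. When ratios of mean CPM replaced differences of mean logs, 6 members instead of 10 were at least 1 higher and the median was 0.01. On that measure 9 of the 52 members were at least 1 lower, as were 3200 of 14139 genes, and 17.3% of all genes were at least 1 higher. The list thus showed no excess of higher or of lower members on ratios of mean CPM.

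Within the EGR family, *Egr1* did not mark out the cells with *Egr3*. *Egr1* was expressed in all 62 cells. Its lowest, median and highest levels were 8.30, 11.72 and 13.15 in cells with *Egr3* and 4.15, 11.36 and 12.85 in cells without. The mean was 11.56 ± 1.18 (SD, n = 26 cells) against 10.80 ± 1.93 (SD, n = 36 cells), a difference of 0.75, and levels under 8.30 occurred only among cells without *Egr3*. *Egr2* was expressed in 3 of 26 and 4 of 36 cells and *Egr4* in 1 and 3. *Nab1*, which encodes a corepressor of EGR proteins, was expressed in 17 and 17 cells (65.4% and 47.2%) with a difference of 0.55. Among the 26 cells, the level of *Egr3* had a Spearman rho of 0.05 with that of *Egr1* and of 0.39 with the mean immediate-early level, over cells that share 1 mouse and 1 capture.

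Several other transcription regulators of the response were higher. *Nr4a2*, an orphan nuclear receptor, ran from 0 to 10.35 with a median of 7.83 in cells with *Egr3*, and from 0 to 9.65 with a median of 3.94 in cells without. It was expressed in 21 of 26 and 21 of 36 cells, and its mean was 2.12 higher. Both groups thus hold cells with none and cells with much *Nr4a2*, and the groups differ in how many lie at the top. Its relative *Nr4a1* was alike in both, at medians of 7.28 and 6.95 and a difference of 0.34.

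*Per1*, a clock repressor and CREB target, was found in 18 of 26 cells with *Egr3* (69.2%, interval 48.2 to 85.7) and 10 of 36 without (27.8%, interval 14.2 to 45.2). Its median was 3.52 against 0.17 and the difference of means 1.76. The log2 ratio of mean CPM was 0.09, and 1 cell without *Egr3*, E5, held 43.5% of all *Per1* reads. The part of that cell in the ratio was not tested. *Csrnp1*, a nuclear protein induced by AXIN1, was 1.24 higher, in 10 of 26 and 8 of 36 cells.

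The AP-1 genes gave a mixed picture. *Fos* was expressed in every cell, with medians of 11.31 and 10.40 and a difference of 0.71. *Junb* was found in 24 of 26 cells with *Egr3* (92.3%, interval 74.9 to 99.1) and 24 of 36 without (66.7%, interval 49.03 to 81.4), and was 1.09 higher. *Fosb* was also 1.09 higher, but in 23 of 26 and 30 of 36 cells. *Jun* and *Jund* differed by 0.06 and 0.15. On ratios of mean CPM *Junb* was 0.14 and *Fosb* 0.58 higher, so it is the number of cells with *Junb*, more than the reads in all, that differs. Seen from *Junb*, 24 of 48 cells with it and 2 of 14 cells without it held *Egr3* (intervals 35.2 to 64.8% and 1.78 to 42.8%).

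Of the 26 regulators, 18 were higher and 8 lower in cells with *Egr3*, the lower ones all by less than 1. *Klf4* was 0.57 lower in cells with *Egr3*, in 9 of 26 and 17 of 36 cells. *Atf3* and *Myc* were 0.38 and 0.19 lower.

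Among the remaining immediate-early genes, *Btg2*, an antiproliferative partner of the CCR4-NOT deadenylase, differed most. It was expressed in 24 of 26 cells with *Egr3* (92.3%, interval 74.9 to 99.1) and in 22 of 36 without (61.1%, interval 43.5 to 76.9). Its lowest, median and highest levels were 1.63, 9.03 and 13.06 against 0, 3.12 and 12.25, and the mean was 2.60 higher. *Btg2* fell into a high and a low range, with 18 of 26 and 16 of 36 cells above 7 and only 3 and 1 cells between 4 and 7, limits that were set after the levels were seen. On the ratio of mean CPM the difference was 0.87.

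*Gem*, a small GTPase that limits calcium channels and cell contractility, was found in 13 of 26 cells with *Egr3* (interval 29.9 to 70.1%) and 6 of 36 without (16.7%, interval 6.37 to 32.8), and was 2.25 higher. Its median was 2.12 against 0, and the groups overlapped up to a level of 9.04. *Id3*, an inhibitor of helix-loop-helix factors, was found in 9 of 26 and 4 of 36 cells and was 1.52 higher, or 0.38 on the ratio of mean CPM. *Gadd45g*, a stress-response gene, just reached a difference of 1, although 11 of 26 and 16 of 36 cells expressed it, and 1 cell held 40.6% of its reads.

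*Ier3* is a survival gene of the response. Its lowest, median and highest levels were 0, 4.65 and 9.94 in cells with *Egr3* and 0, 2.98 and 10.15 in cells without. It was expressed in 19 of 26 and 22 of 36 cells and was 1.09 higher, or 0.36 on the ratio of mean CPM. The member in the opposite direction was *Plk2*, a polo-like kinase, with a difference of -2.04 and expression in 10 of 26 and 21 of 36 cells. The RNA-decay factor *Zfp36* and the survival gene *Mcl1* were 0.61 and 0.48 higher, and *Ier2* 0.30 higher.

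No cell of either group lacked all of the immediate-early genes that were at least 1 higher. Of the 10 members that were at least 1 higher, cells with *Egr3* expressed between 4 and 10 with a median of 6.5, and cells without it between 2 and 8 with a median of 4. These 10 were picked for their difference, so this only describes how they were spread over cells. At least 5 of them were expressed in 24 of 26 and 16 of 36 cells.

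**Figure D2:**
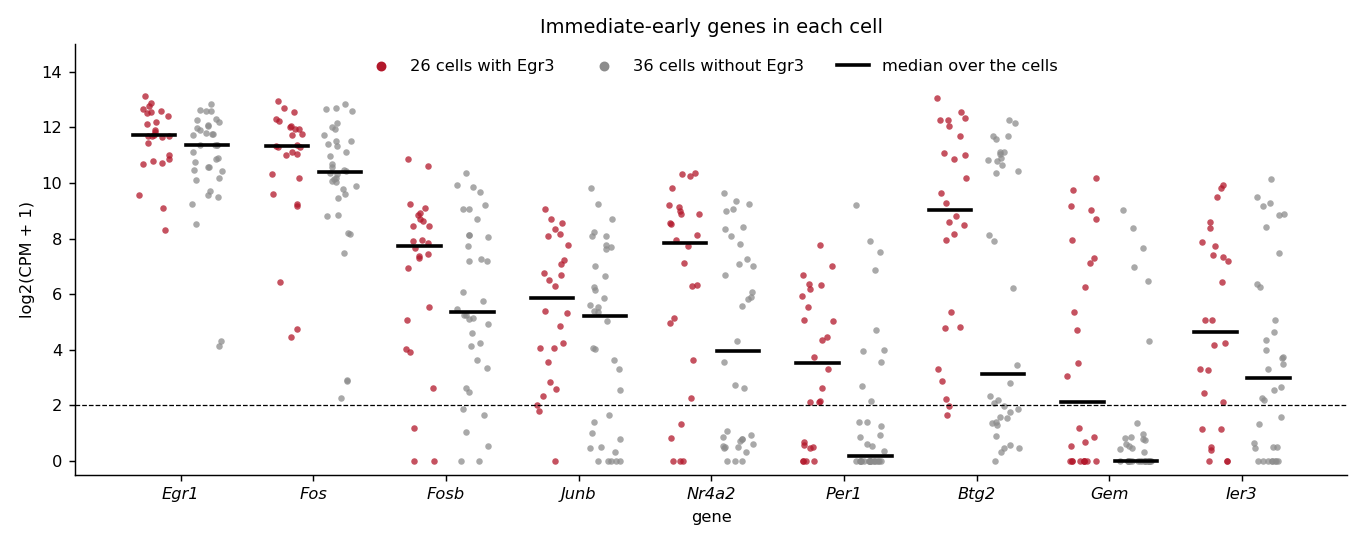
Level as log2(CPM + 1) of 9 immediate-early genes in each cell, for the 26 cells with (red) and the 36 cells without *Egr3* (grey). Points are cells spread sideways at random, black bars are medians and the dashed line is the limit for an expressing cell. *Egr1* and *Fos* lie above the limit in all cells, while *Btg2* and *Nr4a2* have high and low cells in both groups, with medians of 9.03 against 3.12 and 7.83 against 3.94.

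**Figure D3:**
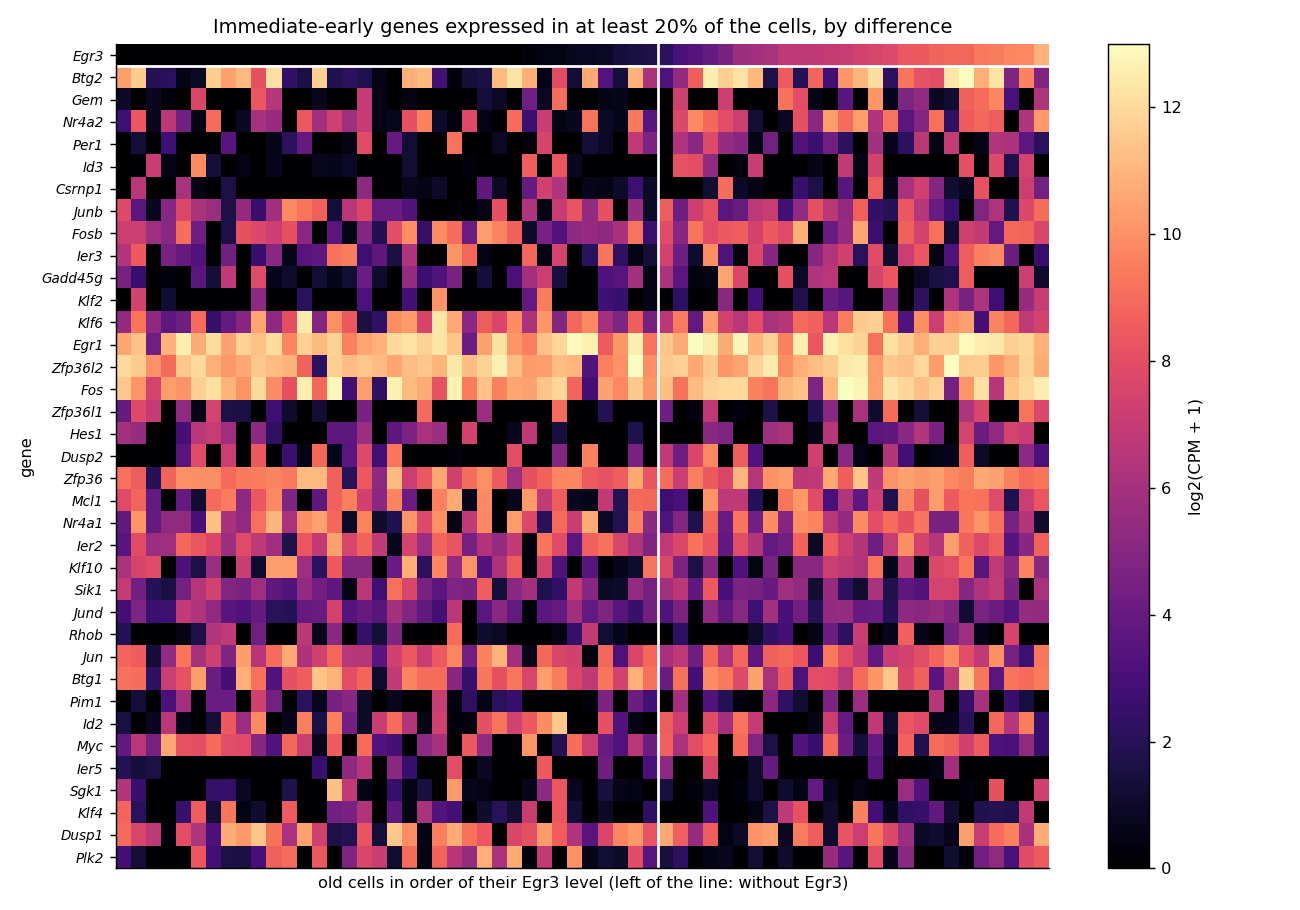
Level as log2(CPM + 1) of *Egr3* and of the 36 immediate-early genes found in 20% or more of cells, in rows by their difference. Columns are the 62 old cells in order of their *Egr3* level, with the 36 cells without *Egr3* left of the white line. The upper rows hold more bright cells on the right, from *Btg2* at 2.60 down to *Plk2* at -2.04, and bright cells also stand on the left.

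The stretches upstream of the start sites of *Btg2*, *Nr4a2* and *Per1* are shown because these had the largest differences towards cells with *Egr3* among the immediate-early genes with a RefSeq window used here. They are the 250 bases before the annotated start (RefSeq, GRCm38.p6), 5′ to 3′ on the strand of the gene. Capitals mark TGACG in either orientation, the half-site of the cyclic AMP response element that CREB binds, and where overlapping copies face each other they make the full element TGACGTCA. *Btg2* lies on the minus strand (chr1:134079156-134079405), *Nr4a2* on the minus strand (chr2:57124004-57124253) and *Per1* on the plus strand with 2 starts (chr11:69098699-69098948 and chr11:69099902-69100151).
Btg2: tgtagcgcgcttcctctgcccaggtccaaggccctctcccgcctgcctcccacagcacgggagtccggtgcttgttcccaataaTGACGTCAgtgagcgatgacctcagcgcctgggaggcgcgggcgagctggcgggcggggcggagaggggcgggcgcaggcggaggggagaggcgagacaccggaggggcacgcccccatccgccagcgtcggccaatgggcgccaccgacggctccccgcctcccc
Nr4a2: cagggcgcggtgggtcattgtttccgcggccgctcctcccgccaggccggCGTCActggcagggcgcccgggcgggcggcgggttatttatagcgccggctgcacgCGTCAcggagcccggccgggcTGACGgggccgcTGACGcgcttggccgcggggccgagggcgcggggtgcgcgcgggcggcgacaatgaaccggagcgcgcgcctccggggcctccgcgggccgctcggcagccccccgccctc
Per1, start 1: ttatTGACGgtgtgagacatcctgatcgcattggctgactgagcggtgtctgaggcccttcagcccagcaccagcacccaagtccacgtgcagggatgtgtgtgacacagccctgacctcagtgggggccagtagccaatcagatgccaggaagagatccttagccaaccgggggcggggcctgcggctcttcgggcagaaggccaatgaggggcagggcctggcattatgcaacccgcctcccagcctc
Per1, start 2: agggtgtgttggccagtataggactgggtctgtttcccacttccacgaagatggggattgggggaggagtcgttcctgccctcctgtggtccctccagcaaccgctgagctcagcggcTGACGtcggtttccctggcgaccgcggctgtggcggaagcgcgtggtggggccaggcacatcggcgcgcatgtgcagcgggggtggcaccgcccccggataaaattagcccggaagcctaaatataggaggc
The *Btg2* stretch held the full element, 166 to 159 bases before the start, and *Nr4a2* held 4 half-sites, the one nearest the start 111 to 107 bases before it. Each *Per1* stretch held 1 half-site. Of the 52 immediate-early genes with a read, 40 matched a window that was used. The half-site stood on either strand in 30 of their 56 windows (53.6%), against 17.8% of all 32851 windows of the same length. The full element stood in 4 of the 56 (7.14%) against 1.55% of all, and these 4 were *Btg2*, *Dusp1*, *Maff* and *Plk2*. *Plk2* and *Dusp1* had differences of -2.04 and -0.72, so members with the element stood on both sides. The CArG box, which SRF binds, stood in windows of 3 of the 40 genes (7.5%) and of 1.62% of all genes, and 4 of the 6 windows that held it belong to *Egr2*. The site GCGTGGGCG, which EGR proteins bind, stood in 1 window, that of *Maff*, and in 0.536% of all. These windows describe the letters only, and the binding of a factor was not measured.

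Upstream of the response, the picture was uneven. In the list of growth factor receptors, ERK cascade members and SRF partners, 23 of 29 genes (79.3%) were higher in cells with *Egr3*, against 47.05% of all genes, and 6 were lower, with a median of 0.25. At least 1 higher were 4 and at least 1 lower 2 (13.8% and 6.90%, against 4.79% and 4.17% of all genes). Those higher included *Shc1* (an adaptor of receptor tyrosine kinases, 1.75), *Jak2* (kinase of the thrombopoietin receptor, 1.43) and *Mkl1* (an actin-regulated SRF coactivator, 1.10). *Nras* and *Rps6ka1*, the latter a kinase downstream of ERK, were 1.13 and 1.36 lower. On the ratio of mean CPM *Jak2* was reversed, at -0.11, and 1 cell held 32.4% of all its reads. Of 16 feedback inhibitors of growth factor signalling with a read, none differed by 1 in either direction, and the median was -0.10. *Dusp6*, an ERK phosphatase, was 0.94 lower in cells with *Egr3*, in 12 of 26 and 21 of 36 cells.

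Across all genes, the largest differences lay both inside and outside the immediate-early list. At least 2 higher in cells with *Egr3* were 38 genes (0.269% of 14139), and 19 (0.134%) were at least 2 lower. Of these, 3 higher (*Btg2*, *Gem* and *Nr4a2*) and 1 lower (*Plk2*) are immediate-early genes. Set against the 52 members of the list, both are larger shares than those of all genes. Without the wells of row B and columns 11 and 12 the counts over all genes were 117 and 51, in 26 and 19 cells. With the shallow cells under 1000000 reads left out they were 73 and 72, in 18 and 33 cells.

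The largest difference belonged to *Slc23a2*, which encodes a sodium-dependent transporter of vitamin C. It was expressed in 13 of 26 cells with *Egr3* (interval 29.9 to 70.1%) and 2 of 36 without (5.56%, interval 0.68 to 18.7). Its level ran to 8.90 in cells with *Egr3* and to 6.11 in cells without, from 2139 and 144 summed reads, and the means differed by 2.87. The same counts can be read from *Slc23a2*. Of the 15 cells with *Slc23a2*, 13 held *Egr3* (86.7%, interval 59.5 to 98.3). Of the 47 cells without it, 13 held *Egr3* (27.7%, interval 15.6 to 42.6). *Slc23a2* was picked for its difference, so this second reading restates the selected split and adds no separate evidence. The intervals of this gene do not allow for that choice and only describe these cells. 1 cell, F4, gave 52.5% of the *Slc23a2* reads.

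*Tiparp*, an ADP-ribosyltransferase induced by the aryl hydrocarbon receptor, was found in 19 of 26 and 11 of 36 cells and was 2.77 higher. *Bod1l*, which protects stalled replication forks, was found in 25 of 26 and 18 of 36 cells and was 2.70 higher, but 0.39 on the ratio of mean CPM. *Tob1*, an antiproliferative relative of *Btg2*, was found in 13 of 26 and 6 of 36 cells and was 2.48 higher. Further enzymes were the acid ceramidase *Asah1*, the retinol dehydrogenase *Rdh13* and *Sdha*, the flavoprotein of succinate dehydrogenase, which were 2.63, 2.60 and 2.59 higher, or 1.65, 0.99 and 0.63 on the ratio of mean CPM. *Zzef1* and *Aarsd1*, the latter an editing protein for mischarged alanyl-tRNA, completed the 10 largest at 2.63 and 2.58. All 10 had cells above a level of 6 in both groups, so none of them separated the groups. *Frg1* overlaps *Asah1* and *Eps8l1* overlaps *Rdh13* in the annotation, and their reads may be shared.

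In the other direction the largest difference belonged to *Rab8a*. *Rab8a*, a GTPase of vesicle transport, was found in 9 of 26 cells with *Egr3* (34.6%) and 23 of 36 without (63.9%), with medians of 0.46 and 5.99 and a difference of -2.81. *Rpn2*, a subunit of the oligosaccharyltransferase, was found in 14 of 26 and 28 of 36 cells and was 2.72 lower. *Eif4a3*, the helicase of the exon junction complex, was 2.58 lower, and *Tardbp*, which encodes the RNA-binding protein TDP-43, was found in 8 of 26 and 26 of 36 cells and was 2.49 lower. *Uba2*, a subunit of the SUMO-activating enzyme, and *Ywhaq*, a 14-3-3 protein, were 2.50 and 2.45 lower. *Mbd6*, *Zc3h7a* and *Eif1ad* were lower by 2.38, 2.37 and 2.30. *Eif1ad* was found in 1 of 26 and 13 of 36 cells, overlaps *Banf1*, and had 45.9% of its reads in 1 cell. *Mbd6* overlaps *Ddit3* and *Dctn2*, *Rpn2* overlaps *Mroh8* and *Tardbp* overlaps *Masp2*, so their reads may be shared too.

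**Figure D4:**
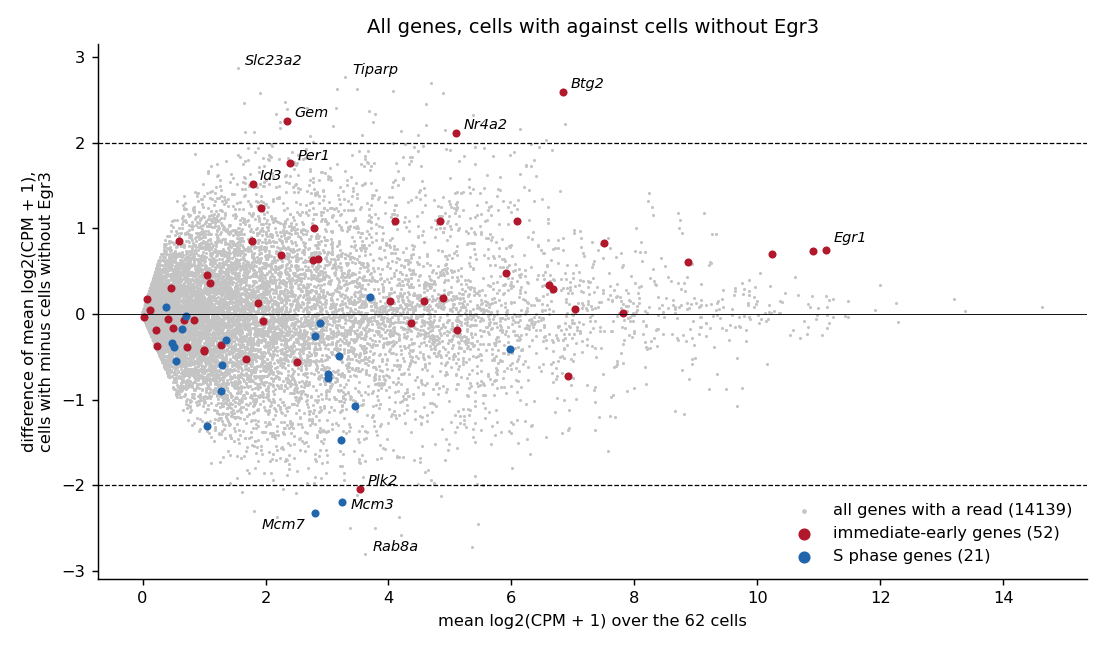
Difference of mean log2(CPM + 1), cells with minus cells without *Egr3*, against the mean log2(CPM + 1) over the 62 cells, for 14139 genes (grey), 52 immediate-early genes (red) and 21 S phase genes (blue). Dashed lines mark differences of 2. *Slc23a2* at 2.87 and *Rab8a* at -2.81 stand at the ends, and the S phase genes lie mostly under 0.

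The genes whose level followed *Egr3* most closely over the 62 cells were *Slc23a2* (Spearman rho 0.57), *2610008E11Rik* (0.55), *Aarsd1* (0.45), *Rbm48* (0.42), *Tex2* (0.41) and *Rrp7a* (0.41). All were chosen among genes found in 20% or more of cells, all points share 1 mouse and 1 capture, and cells at 0 make up much of each rank order. *2610008E11Rik* was found in 13 of 26 and 4 of 36 cells and had 58.8% of its reads in 1 cell. No immediate-early gene was among the 6. *Per1*, *Csrnp1* and *Gem* had values of 0.37, 0.35 and 0.34, *Btg2* and *Nr4a2* 0.29 each, and *Egr1* 0.22.

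Genes of DNA replication were lower in cells with *Egr3*. Of 21 S phase genes, 19 (90.5%) were lower and 2 higher, with a median difference of -0.49, against 52.95% lower over all genes. At least 1 lower were 5 (23.8%, against 4.17% of all genes), and none was at least 1 higher. Among those found in 20% or more of cells, 4 of 12 were at least 1 lower, against 7.61% of such genes. The leading members encode subunits of the MCM helicase, which is loaded on origins before replication. *Mcm7* was found in 7 of 26 cells with *Egr3* (26.9%, interval 11.6 to 47.8) and 17 of 36 without (47.2%, interval 30.4 to 64.5) and was 2.32 lower. *Mcm3* was found in 9 of 26 and 19 of 36 cells and was 2.20 lower, and *Mcm4* in 9 of 26 and 18 of 36 cells and was 1.47 lower. *Mcm2* was found in 1 of 26 and 8 of 36 cells and was 1.30 lower. *Mcm6* and *Mcm5* were 0.49 and 0.11 lower, and *Mcm5* was found in 20 of 26 and 25 of 36 cells. The fifth gene was *Chaf1b*, a histone chaperone subunit, which was 1.08 lower but 0.075 higher when 1 read of *Egr3* was enough to count a cell as having it. Reads of *Mcm7* may be shared with the overlapping *Ap4m1*. At least 3 of the 6 MCM subunits were expressed in 9 of 26 and 18 of 36 cells. Without row B and columns 11 and 12 the S phase median was -0.28, and 4 members were at least 1 lower. With every cell thinned to 250000 reads the median was -0.35, and 2 were at least 1 lower. On the ratio of mean CPM the median was -1.14, and 12 were at least 1 lower, as were 3200 of 14139 genes.

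The genes of division did not go the same way. Of 20 G2/M genes none differed by 1, and the median was 0.06. One or more of the mitotic drivers *Cdc25c*, *Cdk1*, *Ccnb1* and *Ccna2* were expressed in 13 cells, and 7 of these held *Egr3* (53.8%, interval 25.1 to 80.8), against 19 of the other 49 (38.8%, interval 25.2 to 53.8). The 12 G1 cyclins, kinases and inhibitors with a read had a median of -0.23, with 9 lower and 3 higher, all by less than 1. *Ccnd1* and the inhibitors *Cdkn2d* and *Cdkn1c* were at -0.53, -0.53 and -0.48. *Ccnd3* was at 0.95 (0.023 on the ratio of mean CPM), and *Cdkn1b*, a brake on G1, at 0.77 (-0.023 in cells with 1000000 reads or more).

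Other programmes showed members on both sides. Over all genes 4.79% were at least 1 higher and 4.17% at least 1 lower. Among genes found in 20% or more of cells these shares were 8.2% and 7.61%. Of 26 megakaryocyte and platelet genes with a read, 3 (11.5%) were at least 1 higher (*Tgm2* 1.35, *Clu* 1.33, *Gfi1b* 1.10). Another 3 (11.5%) were at least 1 lower (*Mef2c*, *Vwf* and *Selp*, lower by 1.35, 1.18 and 1.13). *Tgm2*, a transglutaminase, was found in 24 of 26 and 18 of 36 cells, but was 0.29 higher on the ratio of mean CPM and 0.16 higher without row B and columns 11 and 12. *Vwf*, the gene behind the reporter of this mouse, was found in 15 of 26 and 22 of 36 cells, at medians of 2.67 and 6.35. *Selp*, the P-selectin gene, was found in 16 of 26 and 26 of 36 cells, so that 16 of 42 cells with *Selp* and 10 of 20 without it held *Egr3*.

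HSC identity genes were balanced, with 13 of 26 higher, 13 lower and a median of -0.01. At least 1 higher were 2 (7.69%, against 4.79% of all genes) and at least 1 lower 2 (7.69%, against 4.17%). *Procr*, the endothelial protein C receptor of long-term HSCs, was 1.62 higher, in 13 of 26 and 11 of 36 cells, and *Mllt3*, an HSC maintenance factor, was 1.21 higher. *Cd34* and *Ndn*, an imprinted growth suppressor, were 1.25 and 1.08 lower. *Gata2*, which HSCs need, was expressed in all 62 cells and was 0.88 lower.

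Of 7 MHC class II genes 6 (85.7%) were higher, against 47.05% of all genes, with a median of 0.20. At least 1 higher were 2 (28.6%, against 4.79% of all genes), *H2-Ab1* at 1.27 and *H2-DMa* at 1.25. Reads of *H2-DMa* may be shared with the overlapping *Brd2*. In cells with 1000000 reads or more these 2 were at 1.01 and 1.66, but *H2-Eb1*, *H2-Aa* and *Cd74* at -0.18, -0.39 and -0.55. *H2-Aa* was expressed in 18 of 26 and 20 of 36 cells with a difference of 0.11. *Aldh1a1*, a retinaldehyde dehydrogenase, was expressed in 21 and 25 cells with a difference of 0.28. Both differences turned negative under at least 1 alternative, with lowest values of -0.39 and -0.42.

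Stress programmes had a few members apart, and the lists did not share 1 direction. Higher in cells with *Egr3* were 64.7% of interferon genes and 63.6% of p53 targets, close to the 65.4% of the immediate-early list. For heat shock, NF-kB and integrated stress response genes these shares were 53.3%, 47.1% and 40%, against 47.05% of all genes. The medians of the 5 lists in this order were 0.26, 0.08, 0.14, -0.06 and -0.07, against 0.24 for the immediate-early list. At least 1 higher were 20% of heat shock genes, 18.2% of p53 targets, 11.8% of interferon genes and 5.88% of NF-kB genes. Over all genes this share was 4.79%. At least 1 lower were 13.3% of heat shock genes and no member of the other lists, against 4.17% of all genes. Of 15 heat shock and chaperone genes, *Hspd1* (mitochondrial HSP60, 1.80), *Dnajb1* (1.41) and *Dnajb4* (1.01) were higher. *Hspa5*, the chaperone BiP of the endoplasmic reticulum, and *Hsf1*, the heat shock factor, were 1.80 and 1.53 lower. Among 11 p53 targets *Cdkn1a*, a CDK inhibitor, and *Bax*, a cell death gene, were 1.30 and 1.13 higher, in 10 and 8 of 26 against 6 and 5 of 36 cells. Among 17 interferon response genes *Stat2* and *Irf1* were 1.26 and 1.01 higher, but 0.23 and 0.05 on the ratio of mean CPM. Among 17 NF-kB genes *Nfkbiz* was 1.29 higher, but had a difference of -0.024 when 1 read of *Egr3* was enough. None of 10 integrated stress response genes differed by 1.

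**Figure D5:**
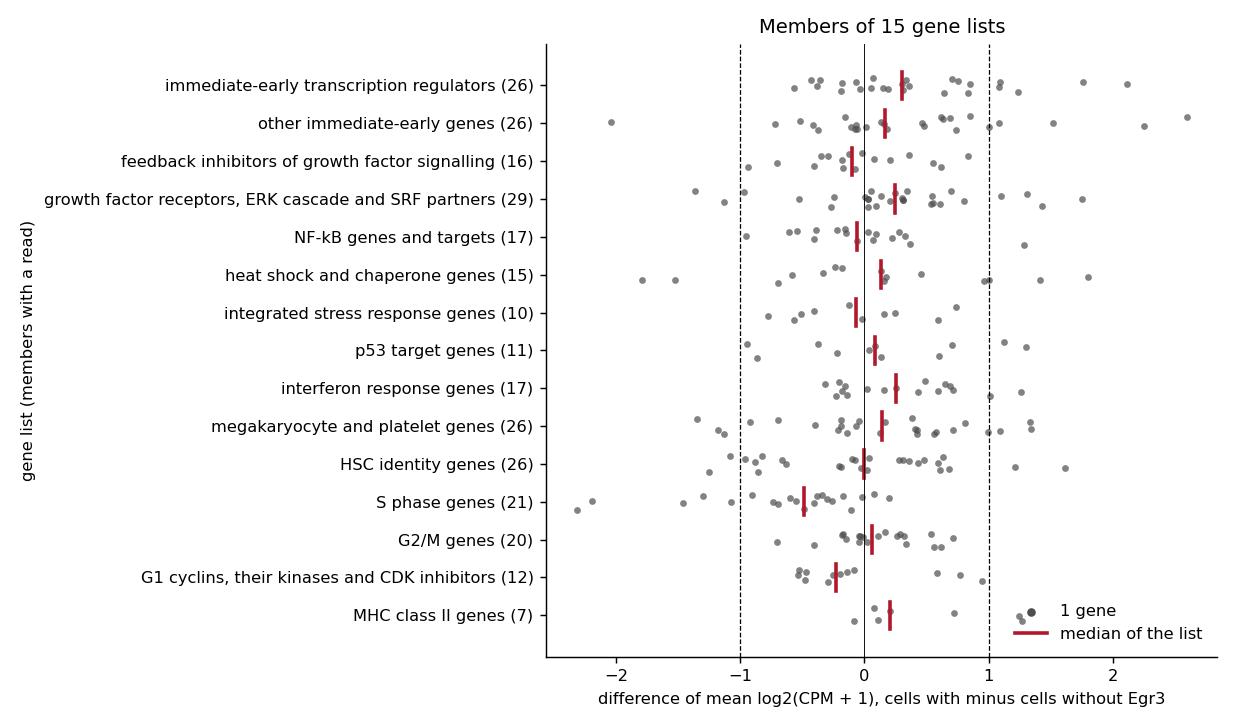
Difference of mean log2(CPM + 1), cells with minus cells without *Egr3*, for each member with a read of 15 gene lists. Points are genes spread up and down at random, red bars are list medians and dashed lines mark differences of 1. Medians run from -0.49 for S phase genes to 0.30 for immediate-early transcription regulators, and most points of every list lie between the dashed lines.

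Set beside the young cells, both groups of old cells carried more of the immediate-early response. Of the 52 genes, 44 had a higher mean in old cells with *Egr3* and 42 in old cells without it than in the 61 young cells, with median differences of 0.77 and 0.55. Over all genes, 49.5% and 51.9% were higher than in the young cells. *Egr1* averaged 6.39 in young cells and was expressed in 48 of them, against all 62 old cells. *Btg2* was expressed in 14 of 61 young cells. *Mcm7* averaged 3.36 in the young cells, nearer to the old cells without *Egr3* (3.79) than to those with it (1.47). Age, mouse and capture again cannot be told apart, and the young cells were not filtered on depth and range from 6331 to 5688706 counted reads.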

How the data were processed

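Single HSCs were captured on the Fluidigm C1 system, their cDNA was amplified with SMARTer chemistry, and Nextera XT libraries were sequenced on an Illumina HiSeq as single reads of 51 bp. The authors mapped reads to mm10 with TopHat2 2.0.10 (submitters' processing notes), reported 1 alignment for each read, and used rpkmforgenes to count reads over RefSeq genes. The deposited values are these raw counts for 15181 genes, without normalization, and counting by strand is not stated. Between 276316 and 4086659 reads were counted per old cell used (median 2116024), and no 2 of the 62 cells held identical counts. From the counts, CPM and log2(CPM + 1) were computed per cell with numpy 2.4.6 and pandas 2.3.3 in Python 3.11.15, and intervals with scipy 1.17.1. No doublet caller was run. Genes named were *Egr1*, *Ier3* and *Junb*, the 10 largest differences each way among genes found in 20% or more of the 62 cells, up to 6 members per list by size, the 6 genes most like *Egr3* by Spearman rho, and *Selp*, *H2-Aa*, *Aldh1a1*, *Ccna2*, *Ccnb1*, *Cdk1* and *Cdc25c*. Other immediate-early genes and MCM subunits are given as values, and 1 gene that the rule names is not reported here. The groups, lists and rules were chosen with earlier results of these data known. Alternatives were all 74 old cells, at least 1000000 reads, a pseudocount of 0.1 CPM, cells thinned to 250000 reads, scaling by DESeq2 1.42.0 (poscounts) or by edgeR 4.0.16 (TMMwsp), other limits on *Egr3*, the 20% filter and ratios of mean CPM. Promoter windows on chromosome 18 were not used. The steps were tested on simulated data. Gene positions are from RefSeq on GRCm38.p6, for 14287 matching symbols.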

Additional observations from a re-analysis of the deposited data

How the results depend on the processing

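No leave-out of a replicate and no test was possible with 1 old mouse. The number of cells with *Egr3* stayed within 1.5 times of 26 in every alternative that regroups cells, from 18 (at least 1000000 reads) to 35 (1 read of *Egr3*). The median immediate-early difference of 0.24 stayed positive, between 0.01 (ratio of mean CPM) and 0.62 (20% filter). Members at least 1 higher numbered 10, but 6 with DESeq2 poscounts factors and 6 on the ratio of mean CPM. On that ratio 9 members were at least 1 lower, as were 3200 of 14139 genes. Without row B and columns 11 and 12, an alternative added after the data were seen, members at least 1 higher numbered 7. The counts of all genes at least 2 higher (38) and lower (19) moved most. They were 66 and 5 with all 74 old cells, 73 and 72 at 1000000 reads, 232 and 164 with a pseudocount of 0.1 CPM, and 1100 and 1579 on the ratio of mean CPM. Genes at least 2 lower were 31 with 1 read of *Egr3* and 35 with *Egr3* above 4. In alternatives added after the data were seen, they were 117 and 51 without row B and columns 11 and 12, and 70 and 42 without the 9 cells with *Egr3* reads under the limit. Direction was lost with 1 read of *Egr3* for *Chaf1b* (0.075) and *Nfkbiz* (-0.024), and on the ratio of mean CPM for *Jak2* (-0.11). The cause was not tested. Of 65 named genes at least 1 apart, the other 62 kept their direction in the alternatives that gave a value, all 12 but for *Mcm2*, which the 20% filter removes. The 5 cells nearest the limit rest on 2 to 5 reads of *Egr3*, and shares of under 5 cells have wide intervals.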

Other observations

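Genes of 2 families of the members named above were read after the values were seen. In the BTG and TOB family of antiproliferative deadenylase partners, *Btg2* and *Tob1* differed by 2.60 and 2.48 and *Tob2* by 1.81, in 14 of 26 cells with *Egr3* and 12 of 36 without. *Btg1* was expressed in 26 of 26 and 35 of 36 cells with a difference of 0.01. Of the subunits of succinate dehydrogenase, *Sdha* and *Sdhb* were 2.59 and 1.29 higher in cells with *Egr3*, while *Sdhc* and *Sdhd* differed by 0.16 and 0.07. *Slc23a1*, the paralogue of *Slc23a2*, was listed in all 62 cells at means of 5.61 and 5.56. Whether the way reads were counted has a part in this was not tested.

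A few cells stood outside the 2 groups. Of the 12 old cells left out by the rule, H9 held *Egr3* at 10.95 from 6085 reads, with *Egr1* at 10.49 and *Ier3* at 0.40, and A2 held it at 2.60 from 1 read. In the young mouse, B7 held *Egr3* at 5.93 with *Egr1* at 0.77, and C12 held *Egr3* at 8.68 with *Egr1* at 11.70. *Lepr* and *Xcr1*, markers of stroma and of dendritic cells, were listed in all 62 old cells at like means in both groups, 5.56 and 5.74 for *Lepr* and 4.90 and 4.82 for *Xcr1*.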
